A study of Homo sapiens with 15 samples.

Results

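TGF-beta reaches a cell through a short chain of ligands, receptors and storage proteins, and 9 genes of that chain were followed here in BEAS-2B cells: the ligands TGFB1, TGFB2 and TGFB3, the receptors TGFBR1, TGFBR2 and TGFBR3, the latency genes LTBP1 and LTBP2, and the feedback inhibitor SMAD7. They were found in the count table by Entrez gene number, and all 9 were present among its 28395 genes. All 9 also passed the filter on low counts that left 16740 genes for testing. BEAS-2B is an established line made from human bronchial epithelium. Total RNA was sequenced from cells kept for 24 h, for 15 weeks or for 30 weeks either without particles (control) or with polyethylene terephthalate nanoplastics (PET-NPLs) at 50 µg/mL, and the question was what lasting exposure does to gene expression. Each arm had 2 samples at 24 h and 2 at 15 weeks, and at 30 weeks there were 3 controls and 4 exposed samples. All groups were grown in the same medium with fetal bovine serum, and all come from 1 cell line. The labels do not say whether replicates came from separate cultures, so the p-values measure the spread between these samples, which may be technical. The labels place 24 h and 15 weeks in batch 1 and 30 weeks in batch 2, so each comparison of exposed with control cells lies within 1 batch, whereas a change from 15 to 30 weeks cannot be told apart from the batch. Total counts ran from 23143202 to 31459990 per sample.

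As background, TGF-beta ligands are secreted bound to their own propeptide and are mostly held in the matrix as latent complexes by LTBP proteins until integrins or proteases release them. The free ligand brings together the type II receptor (TGFBR2) and the type I receptor (TGFBR1), whose kinase phosphorylates SMAD2 and SMAD3, and TGFBR3 (betaglycan) presents ligand to this pair, TGFB2 above all. In airway epithelium the pathway restrains growth and drives matrix production and epithelial-to-mesenchymal transition, and serum itself carries latent TGF-beta. RNA levels do not show how much ligand is active.

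The 3 ligand genes share a protein fold but not their promoters. They are shown because TGFB2 alone of the 3 passed the test of exposure at 30 weeks. The sequences are the 110 bases before the annotated start, 5′ to 3′ on the gene's strand, from RefSeq on GRCh38.p14. Capitals mark TATAAA (the TATA box) and ACGTCA (the core of the cAMP response element), searched on both strands, and these motifs do not overlap.

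TGFB1 (chr19:41353923-41354032, minus strand): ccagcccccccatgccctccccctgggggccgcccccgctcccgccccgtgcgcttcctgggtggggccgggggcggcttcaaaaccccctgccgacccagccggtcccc
TGFB2 (chr1:218345226-218345335, plus strand): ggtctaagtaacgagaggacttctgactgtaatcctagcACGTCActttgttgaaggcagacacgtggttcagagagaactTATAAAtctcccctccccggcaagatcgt
TGFB3 (chr14:75983012-75983121, minus strand): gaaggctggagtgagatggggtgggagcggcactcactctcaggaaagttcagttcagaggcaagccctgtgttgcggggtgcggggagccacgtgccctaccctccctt

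The TGFB2 stretch held both motifs, TATAAA at bases -29 to -24 and ACGTCA at -71 to -66 from the start, whereas those of TGFB1 and TGFB3 held neither. Of 35116 promoters of the same length, 5.31% held TATAAA and 4.56% held ACGTCA. Guanine and cytosine made up 80.9% of the TGFB1 stretch, 48.2% of that of TGFB2 and 62.7% of that of TGFB3.

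SMAD7 is a textbook target of the SMAD proteins it inhibits, and its upstream DNA carries the palindromic SMAD-binding element GTCTAGAC, in capitals here with the bases around it (chr18:48952202-48952241, minus strand, RefSeq start, GRCh38).

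SMAD7: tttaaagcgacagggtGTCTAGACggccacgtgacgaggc

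The element lay 1253 bases before the SMAD7 start, at chr18:48952218-48952225. Among the 2000 bases before the start of 19153 genes, 234 windows (1.22%) held it, and of the 9 genes followed here SMAD7 alone did. A match of letters says nothing about binding in these cells.

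TGFBR1, TGFBR2 and TGFB2 were the most abundant of the 9 genes per length. In CPM (counts scaled to library size) per kb of exon, averaged over the 6 conditions, TGFBR1 stood at 14.4 and TGFBR2 at 14.4, level with each other. TGFB2 followed at 8.24, SMAD7 at 4.25, TGFBR3 at 3.74, LTBP2 at 2.31 and TGFB1 at 2.12. TGFB3 (0.292) and LTBP1 (0.290) were lowest and also level. Each pair of neighbours in this order overlapped in the range of its 6 condition means, other than TGFB1 and TGFB3. TGFB2 thus made up 66.1% to 84.4% of the summed ligand level per kb in the 15 samples, and exposed and control samples overlapped in that share at each time. The order changed with time in culture, as the plot of levels per length shows: LTBP2 stood at 5.80 CPM per kb in 24 h controls and at 0.391 in 15-week controls, and TGFBR2 gave way to TGFBR1 as the highest member.

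**Figure D1:**
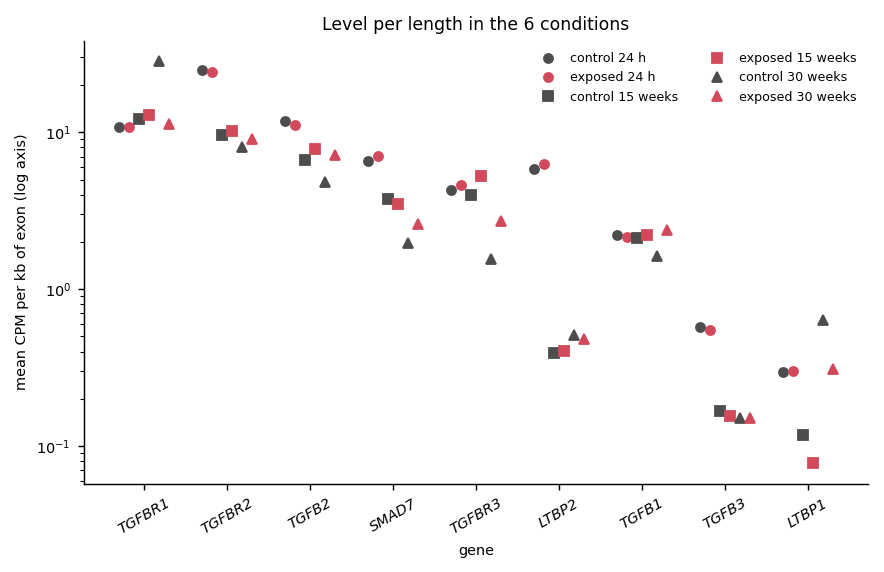
Mean CPM per kb of exon (log axis) of the 9 genes, ordered by their mean over the 6 conditions; grey symbols are control and red symbols exposed cells, with circles for 24 h, squares for 15 weeks and triangles for 30 weeks. The spread of LTBP2 over time and the 30-week controls of TGFBR1, far above its other 5 conditions, stand out.

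After 30 weeks, exposed cells held more TGFB2, TGFBR3 and SMAD7 RNA and less TGFBR1 and LTBP1 RNA than control cells. In edgeR's quasi-likelihood fit, 5 of the 9 genes passed an adjusted p of 0.05 at 30 weeks, 3 higher and 2 lower in exposed cells, against 23.7% of all genes tested (12% higher and 11.7% lower). In the same 5 genes no exposed sample overlapped a control sample, a state reached by 27.3% of all genes. The median log2 fold change of the 9 genes was 0.18, and that of all genes tested was 0.0078. At 24 h and at 15 weeks none of the 9 passed, nor did any other gene in this test (0%). At an unadjusted p under 0.05 there were 277 genes at 24 h and 823 at 15 weeks. The 24 h count was 478 without exposed replicate 1 at 24 h. The 15-week count was 418 without exposed replicate 2 and 490 without control replicate 2 at 15 weeks. It was 1235 without exposed replicate 2 at 30 weeks. DESeq2 called 18 genes at 15 weeks and limma-voom with surrogate variables 10, and a fit of each time point alone called 304, none of them among the 9, and every tool run called 0 at 24 h. Of all genes, 3961 were called at 30 weeks, and leaving out control replicate 1 gave 2491, whereas 5704 genes were called when exposed replicate 2 was left out. The number of the 9 genes called at 30 weeks ran from 4 to 6 over all alternatives.

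**Figure D2:**
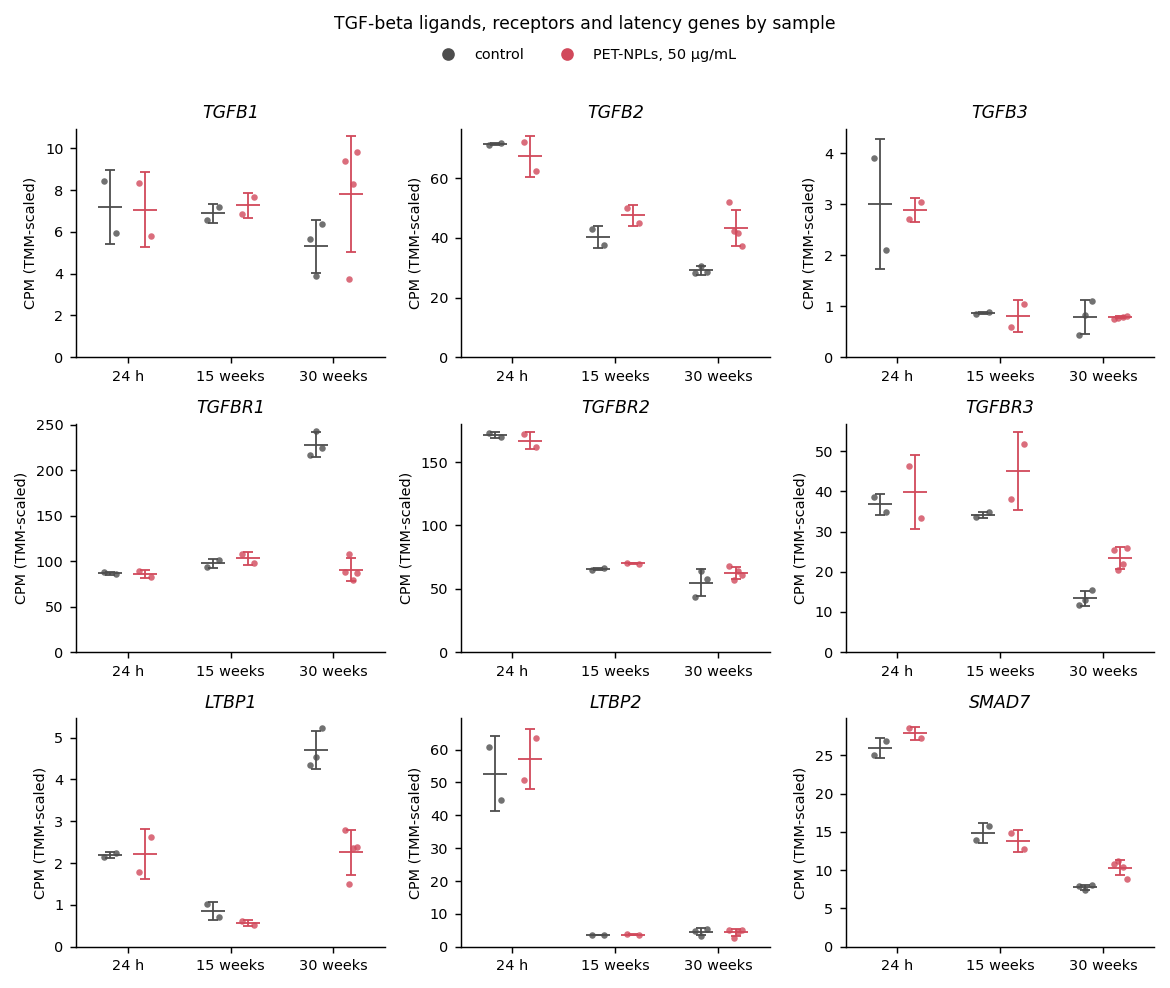
CPM of each of the 9 genes in each sample (points), with mean and SD (bars), for control cells (grey) and cells exposed to 50 µg/mL PET-NPLs (red) at 24 h, 15 weeks and 30 weeks. At 30 weeks the 3 TGFBR1 controls (217 to 243 CPM) lie far above the 4 exposed samples (79.3 to 108 CPM), and the groups of TGFB2, TGFBR3, LTBP1 and SMAD7 are also apart.

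Among the ligands, TGFB2, the main TGF-beta transcript of these cells, was higher after 30 weeks of exposure. The 3 controls at 30 weeks held 28.1, 30.8 and 28.5 CPM and the 4 exposed samples 52.0, 42.3, 41.8 and 37.4 CPM. Every exposed sample was above every control. The log2 fold change was 0.57 (SE 0.12, 95% interval 0.31 to 0.83, a 1.49-fold difference, adjusted p = 0.0028). At 15 weeks the controls held 43.0 and 37.7 CPM and exposed cells 50.0 and 45.1 CPM, and at 24 h 71.2 and 71.8 CPM stood against 72.2 and 62.4 CPM. The 15-week groups did not overlap, yet their log2 difference of 0.24 (SE 0.16) did not pass the test. TGFB2 therefore stood lower at each later time in control cells, and exposed cells at 30 weeks overlapped the 15-week samples.

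TGFB1, the ligand most studied in fibrosis and cancer, was far less abundant than TGFB2 (2.21 against 11.8 CPM per kb in 24 h controls). At 30 weeks its controls held 5.68, 3.90 and 6.37 CPM and exposed cells 9.38, 3.75, 8.27 and 9.82 CPM. Exposed replicate 2 was the lowest of all 7 samples, while the other 3 exposed samples were above every control. The log2 fold change of 0.55 (SE 0.28, 95% interval -0.03 to 1.14) did not pass the test (adjusted p = 0.16). Without exposed replicate 2 it was 0.79 with an adjusted p of 0.0039. With all samples it also passed in limma-voom with surrogate variables (0.59, adjusted p = 0.011), and over all 24 alternatives the adjusted p ran from 0.0039 to 0.42. TGFB1 lay between 5.79 and 8.45 CPM in all 8 samples at 24 h and 15 weeks, with overlapping groups at both times.

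TGFB3, the ligand known for its role in palate closure, was near the lower limit of what was counted. It held 3.91 and 2.10 CPM in 24 h controls, 2.72 and 3.05 CPM in cells exposed for 24 h, and at most 1.11 CPM in any later sample, where 10 to 32 reads per sample carried the value. At 30 weeks the groups overlapped, with a log2 difference of -0.03 (SE 0.34), and the interval from -0.74 to 0.68 allows a change of over 1.5 times either way.

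The receptors differed in opposite directions. TGFBR1, the type I receptor kinase that carries the signal to SMAD2 and SMAD3, held 217, 243 and 224 CPM in the 30-week controls and 87.8, 108, 79.3 and 87.1 CPM in exposed cells. The log2 fold change was -1.33 (SE 0.11, 95% interval -1.57 to -1.09, 2.52-fold lower, adjusted p = 3.91e-07). At 24 h the controls held 87.9 and 85.2 CPM and exposed cells 89.2 and 82.5 CPM, and at 15 weeks the values were 93.7 and 101 CPM against 108 and 98.0 CPM. Exposed cells at 30 weeks thus lay within or near the range of the 8 earlier samples, and the 3 controls at 30 weeks were the samples that stood apart. The direction and the call were the same under all 24 alternatives, with log2 fold changes from -1.43 to -1.27.

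TGFBR2, the type II receptor that binds ligand first, held 43.5, 63.7 and 57.4 CPM in the 30-week controls and 68.2, 56.5, 63.9 and 60.5 CPM in exposed cells. The groups overlapped, and the log2 difference of 0.18 (SE 0.12, 95% interval -0.08 to 0.44) did not pass the test. Per kb of exon, the ratio of TGFBR1 to TGFBR2 lay between 0.430 and 0.445 in the 4 samples at 24 h and between 1.21 and 1.31 in the 4 at 15 weeks. At 30 weeks it was 4.27, 3.27 and 3.35 in controls and 1.10, 1.64, 1.06 and 1.23 in exposed cells. The 30-week groups did not overlap in this ratio, and the controls were the higher.

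TGFBR3, the ligand-presenting co-receptor, moved the other way from TGFBR1. Its 30-week controls held 11.7, 12.9 and 15.5 CPM and the exposed samples 25.5, 20.4, 22.0 and 25.8 CPM, with no overlap. The log2 fold change was 0.81 (SE 0.16, 95% interval 0.48 to 1.14, 1.75-fold higher, adjusted p = 0.0012). TGFBR3 was also drawn by the study in a panel of mesenchymal transition genes picked on these samples, so its direction is not independent evidence. The same holds for CDH2, FBN1 and COL1A1 of that panel, named below. It also holds for ITGB8, FN1, KRT19 and SNAI2, which the study drew in a panel of lung cancer genes picked likewise. At 15 weeks the controls held 33.7 and 34.8 CPM and exposed cells 38.2 and 51.9 CPM. That log2 difference of 0.40 (SE 0.19, 95% interval -0.02 to 0.81) did not pass the test. At 24 h the groups overlapped.

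Of the latency genes, LTBP1, which binds the latent ligand covalently and anchors it in the matrix, was lower in exposed cells at 30 weeks. The controls held 4.34, 4.55 and 5.23 CPM and the exposed samples 2.79, 1.51, 2.36 and 2.39 CPM. The groups did not overlap, and the log2 fold change was -1.06 (SE 0.22, 95% interval -1.52 to -0.60, 2.08-fold lower, adjusted p = 0.0022). LTBP1 was a minor transcript, carried by 43 to 146 reads per sample at 30 weeks and by 16 to 32 at 15 weeks. At 15 weeks its controls held 1.01 and 0.708 CPM and exposed cells 0.620 and 0.519 CPM, a log2 difference of -0.58 (SE 0.36) that did not pass.

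LTBP2, an LTBP of elastic fibres that does not bind latent TGF-beta, changed with time and not detectably with exposure. At 30 weeks the controls held 4.90, 3.39 and 5.55 CPM and exposed cells 5.22, 2.63, 4.48 and 5.03 CPM. These groups overlapped, with a log2 difference of -0.09 (SE 0.22, 95% interval -0.56 to 0.38). Per kb of exon the ratio of LTBP1 to LTBP2 was 1.09, 1.66 and 1.16 in the 30-week controls and 0.661, 0.708, 0.651 and 0.587 in exposed cells.

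SMAD7, which blocks the type I receptor and marks it for breakdown, was higher in exposed cells at 30 weeks by a small margin. The controls held 7.87, 7.36 and 8.02 CPM and the exposed samples 10.9, 11.1, 10.4 and 8.87 CPM. Every exposed sample was above every control, and the log2 fold change was 0.41 (SE 0.12, 95% interval 0.15 to 0.68, 1.33-fold higher, adjusted p = 0.023). The call was lost without control replicate 2 (0.38, adjusted p = 0.069), without exposed replicate 1 (0.39, adjusted p = 0.059) and with each time point fitted alone (0.40, adjusted p = 0.10), and over all 24 alternatives the adjusted p ran from 0.0095 to 0.10. At 15 weeks the groups overlapped, and at 24 h controls (25.0 and 26.9 CPM) and exposed cells (28.5 and 27.3 CPM) differed by 0.10 (SE 0.15) on the log2 scale.

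**Figure D3:**
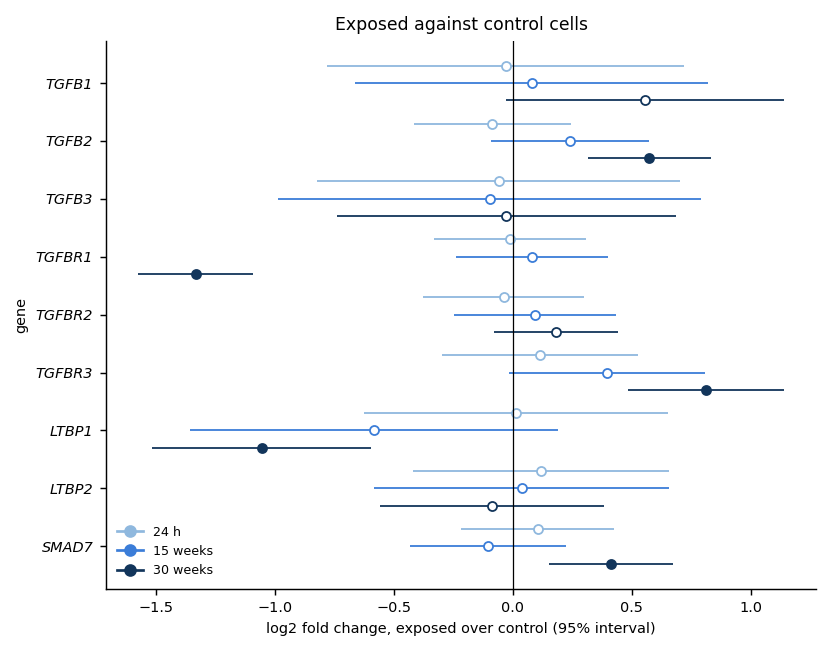
Log2 fold change of exposed over control cells with its 95% interval for the 9 genes at 24 h (light), 15 weeks (middle) and 30 weeks (dark); filled points passed an adjusted p of 0.05 and open points did not. All filled points belong to 30 weeks, from -1.33 for TGFBR1 to 0.81 for TGFBR3.

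Whether the exposure change itself differed between 15 and 30 weeks was tested in the same fit. The changes at these times lie in different batches, so growth with exposure time cannot be told apart from the batch. The difference of the log2 changes passed for TGFBR1 alone among the 9 genes, against 4.74% of all genes called (2.66% higher and 2.08% lower), with -1.41 (SE 0.19, 95% interval -1.81 to -1.01, adjusted p = 0.00026). The 794 genes called became 1519 without exposed replicate 2 at 30 weeks and 393 to 483 without any 1 of the 4 samples at 15 weeks. For SMAD7 the difference was 0.52 (SE 0.20, adjusted p = 0.19), for TGFBR3 0.41 (SE 0.25, adjusted p = 0.47), for TGFB2 0.33 (SE 0.20, adjusted p = 0.46) and for LTBP1 -0.47 (SE 0.43, adjusted p = 0.68). For these 4 genes the 30-week change is therefore not shown to differ from that at 15 weeks.

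Most of the 9 genes differed between 24 h and 15 weeks in both arms. Between 24 h and 15 weeks, within batch 1, TGFB2, TGFB3, TGFBR2, LTBP1, LTBP2 and SMAD7 fell in control cells (6 of 9, all lower, against 24.9% of all genes called and 12.2% called lower). Those 6 genes also fell in exposed cells, where 26% of all genes were called and 12.5% called lower. The control and exposed samples of these tests are separate. The 4174 genes called in controls became 2462 to 2693 without any 1 of the 4 samples, and the 4349 called in exposed cells became 2526 to 2665 without either 15-week sample or replicate 2 at 24 h. LTBP2 changed most, from 60.8 and 44.5 CPM to 3.54 and 3.57 CPM in controls (14.8-fold lower, log2 fold change -3.89, SE 0.29, adjusted p = 1.2e-07). In exposed cells LTBP2 went from 50.7 and 63.6 CPM to 3.78 and 3.50 CPM (15.7-fold lower, log2 fold change -3.97, SE 0.30).

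TGFBR2 held 173 and 170 CPM in 24 h controls and 64.8 and 66.3 CPM in 15-week controls, a log2 fold change of -1.39 (SE 0.16). Its exposed samples held 172 and 162 CPM at 24 h and 70.3 and 69.6 CPM at 15 weeks, a log2 fold change of -1.26 (SE 0.16). In controls SMAD7 changed by -0.80 and TGFB2 by -0.83, and in exposed cells by -1.01 and -0.50. The call for TGFB2 in exposed cells was lost without exposed replicate 1 at 24 h (-0.38), or without exposed replicate 1 (-0.58) or 2 (-0.42) at 15 weeks. In controls TGFB3 (-1.79) was no longer called without control replicate 1 at 24 h (-1.27), nor LTBP1 (-1.35) without control replicate 2 at 15 weeks (-1.11). TGFB1, TGFBR1 and TGFBR3 did not pass the test in either arm, but TGFBR1 in exposed cells did in limma-voom with surrogate variables (0.28, adjusted p = 0.049).

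From 15 to 30 weeks, across the batches, the arms differed in TGFBR1. It rose in control cells by 1.23 on the log2 scale (SE 0.14, 2.34-fold, adjusted p = 6.3e-06), and in exposed cells its change of -0.18 (SE 0.13) did not pass the test (adjusted p = 0.26). Without exposed replicate 2 at 30 weeks the latter was -0.28 and passed (adjusted p = 0.035, with a range of 0.029 to 0.65 over 23 alternatives). LTBP1 rose in both arms, by 2.45 (SE 0.30) in controls and 1.98 (SE 0.31) in exposed cells.

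TGFBR3 fell in both arms over the same interval, by 1.36 (SE 0.18) in controls and by 0.94 (SE 0.16) in exposed cells, as did SMAD7, by 0.94 (SE 0.14) and by 0.42 (SE 0.13). The SMAD7 call in exposed cells was lost without exposed replicate 1 at 15 weeks (-0.31) and with the replicate block (-0.35, adjusted p = 0.096). TGFB2 fell in controls by 0.47 (SE 0.14), a call lost without control replicate 1 at 15 weeks (-0.37). TGFBR2 in controls (-0.26) did not pass, but did without control replicate 2 at 30 weeks (-0.38). In all, 5 of 9 genes were called in controls and 3 of 9 in exposed cells, against 50.3% and 46% of all genes. The 7697 genes called in exposed cells became 5069 or 5077 without 1 of the 15-week samples. These comparisons share the 15-week samples with those above.

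**Figure D4:**
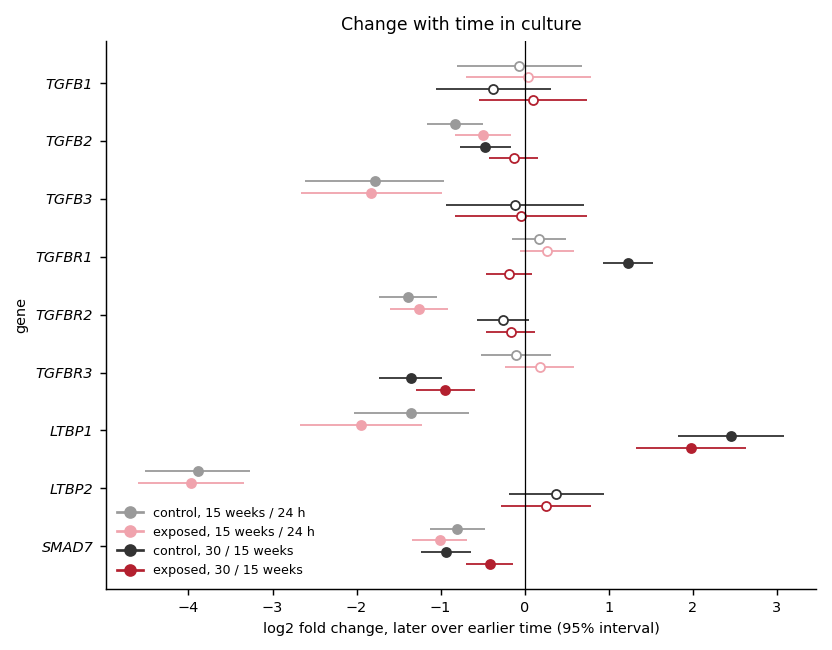
Log2 fold change of the later over the earlier time with its 95% interval for the 9 genes, in control (grey shades) and exposed (red shades) cells; pale colours are 15 weeks over 24 h and dark colours 30 over 15 weeks, and open points did not pass an adjusted p of 0.05. LTBP2 near -3.9 in both arms and TGFBR1, at 1.23 in control cells and -0.18 in exposed cells, are the largest fall and the clearest split between arms.

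The other genes of the pathway were taken from 5 lists, whose counts at 30 weeks stand against 23.7% of all genes called (12% higher and 11.7% lower) and a median log2 fold change of 0.0078. Of the latency and activation genes, 13 of 15 were tested, and 1 was higher and 1 lower in exposed cells, with a median log2 fold change of -0.03. ITGB8, the beta chain of an integrin that frees latent TGF-beta, held a median of 2.84 CPM in controls (2.72 to 3.39) and 15.2 CPM in exposed cells (12.7 to 22.2), and its log2 fold change was 2.45 (SE 0.26, adjusted p = 4.1e-06). FBN1, the fibrillin to which LTBP proteins attach, held 359 to 463 CPM in controls and 187 to 282 CPM in exposed cells (-0.88, SE 0.14, adjusted p = 0.00026). THBS1, an activator of latent TGF-beta and the highest of the list in CPM in both groups, overlapped between the groups (-0.24, SE 0.18). Without exposed replicate 2 the list held 4 called genes.

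Of the co-receptors and receptor partners, 8 of 9 were tested, 2 were higher and none lower, against 23.7% of all genes called, with a median of 0.19. BAMBI, a decoy receptor without a kinase, went from 6.34 to 8.88 CPM in controls to 16.0 to 20.8 CPM in exposed cells (1.26, SE 0.17, adjusted p = 4.2e-05). CD109, a co-receptor that dampens the signal, held 26.7 to 35.4 CPM and 37.6 to 49.7 CPM (0.46, SE 0.14, adjusted p = 0.027), and its call was lost without control replicate 1 or exposed replicate 1 or 4, with the replicate block (adjusted p = 0.096) and with each time point fitted alone (adjusted p = 0.10), so that 1 gene of the list was left. FKBP1A, which binds the resting type I receptor, was the highest in CPM in both groups (0.21, SE 0.10, not called).

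Of the SMADs and their regulators, 14 of 15 were tested, 2 were higher and none lower, against 23.7% of all genes called, with a median of 0.21. SMAD6, the other inhibitory SMAD, held 4.30 to 4.77 CPM in controls and 12.7 to 14.4 CPM in exposed cells (1.57, SE 0.13, adjusted p = 1.9e-07). SKIL, a repressor of SMAD target genes, held 30.7 to 35.8 CPM and 40.3 to 45.1 CPM (0.35, SE 0.11, adjusted p = 0.034), and its call was lost without control replicate 1 or 3 or exposed replicate 4 at 30 weeks, or without either exposed sample at 15 weeks. It was also lost with the replicate block, with each time point fitted alone and with no filter on low counts (adjusted p = 0.10, 0.10 and 0.062). SMAD2 (0.29, SE 0.11), SMAD3 (0.41, SE 0.17) and SMAD4 (0.21, SE 0.14), which carry the signal, did not pass. SMURF2, a ubiquitin ligase that SMAD7 brings to the receptor, averaged 117 CPM in controls and 87.3 CPM in exposed cells (-0.42, SE 0.19, not called). The count for this list depended on single libraries: it was 6 without exposed replicate 2 at 30 weeks, and 1 without control replicate 1 or exposed replicate 4 at 30 weeks or without either exposed sample at 15 weeks.

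Among 19 genes that TGF-beta is known to induce, 18 were tested and 11 were called at 30 weeks, 6 higher and 5 lower, against 12% and 11.7% of all genes, with a median of 0.36. The genes higher in exposed cells were COL1A2, FN1, CCN2, TAGLN, TGFBI and COL4A1, and the lower ones SNAI2, COL1A1, TIMP3, JUNB and CDKN1A. FN1 (fibronectin) held 93.0 to 132 CPM in controls and 405 to 725 CPM in exposed cells (2.25, SE 0.19, adjusted p = 4.1e-07). CCN2 (connective tissue growth factor), a matrix protein and standard readout of TGF-beta, held 85.6 to 116 CPM and 163 to 254 CPM (1.20, SE 0.15, adjusted p = 2.8e-05).

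The collagen I chains, which form 1 protein, differed in opposite directions. COL1A2 was higher in exposed cells (3.28, SE 0.61, adjusted p = 0.00096), from 0 to 18 reads per control sample and 50 to 143 per exposed sample, and COL1A1 was lower (-2.91, SE 0.37, adjusted p = 3e-05), from 21.5 to 89.0 CPM in controls to 5.88 to 10.1 CPM in exposed cells. Over 23 alternatives the log2 fold change of COL1A2 ran from 2.77 to 4.33. SNAI2, a transcription factor of mesenchymal transition, held 24.4 to 27.1 CPM in controls and 2.10 to 3.43 CPM in exposed cells (-3.27, SE 0.18, adjusted p = 3.4e-09). TIMP3, an inhibitor of matrix proteases, was also lower (-1.39, SE 0.17). TGFBI, a secreted matrix protein, held a median of 357 CPM in controls and 564 CPM in exposed cells (0.63, SE 0.15).

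In the activin branch, which uses the same SMAD2 and SMAD3, 11 genes were tested and none was higher in exposed cells. Of the 5 that were called lower, MSTN and ACVR1C were at 14 to 40 reads per sample in the 30-week controls and at most 9 in any other sample. They passed the filter on low counts only through the group where they were high, so their calls are not counted here, and 3 lower genes were left, against 11.7% of all genes. INHBB, a chain of activin B, held 16.9 to 24.7 CPM in controls and 6.23 to 10.9 CPM in exposed cells (-1.26, SE 0.23, adjusted p = 0.00072). FST (follistatin), which binds and blocks activin, was lower by a like amount (-1.05, SE 0.24, adjusted p = 0.0042), and ACVR2A, an activin receptor, changed less (-0.38, SE 0.12, adjusted p = 0.031), a call lost without control replicate 1 or 2 or exposed replicate 1, 3 or 4 (-0.37 to -0.34). The ACVR2A call was also lost with the replicate block (-0.35, adjusted p = 0.10), with each time point fitted alone (adjusted p = 0.086) and with no filter on low counts (adjusted p = 0.078). FSTL3, another activin-binding protein, was the highest in CPM in both groups (0.05, SE 0.12, not called).

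**Figure D5:**
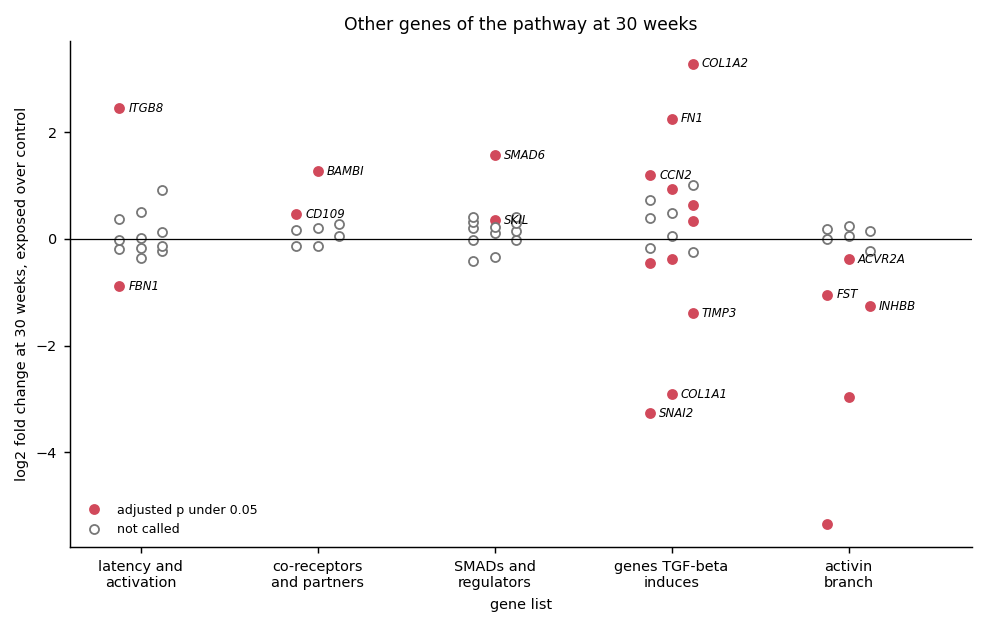
Log2 fold change at 30 weeks of each tested gene in 5 lists of the pathway, with red points for an adjusted p under 0.05 and open points for genes not called. The induced genes spread widest, from COL1A2 at 3.28 to SNAI2 at -3.27. The unlabelled lowest points of the activin branch are MSTN and ACVR1C, tested only through their 30-week controls.

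Markers of cell identity were also examined, and whether identity affects the values above was not tested. Of 12 epithelial markers, 6 were abundant enough to be tested. KRT8 and KRT18, keratins of simple epithelium, were high in every sample (at least 127 and 179 CPM), but KRT5, TP63, NKX2-1, SCGB1A1, FOXJ1 and MUC5AC, which define basal, lung, club, ciliated and goblet cells, were at or near 0 and were not tested, and CDH1 and EPCAM stayed under 1 CPM. VIM, the mesenchymal filament protein, held 1030 to 1877 CPM in the control samples. At 30 weeks KRT8 (2.04, SE 0.16), KRT19 (1.93, SE 0.34) and KRT18 (0.80, SE 0.13) were higher in exposed cells, against 12% of all genes called higher. The other 3 tested, KRT7, CDH1 and EPCAM, were not called, and the median log2 fold change of the 6 was 0.40. The epithelial markers, keratins for the most part, summed to 411, 319 and 314 CPM in controls and 915, 880, 1098 and 949 CPM in exposed cells. KRT8 was the highest in exposed cells and KRT18 in the 30-week controls. Among the 15-week samples this sum lay between 826 and 1036 CPM, and KRT7 had gone from a mean of 1315 CPM in 24 h controls to 18.0 CPM in 15-week controls.

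The 30-week controls stood apart in another list as well. The 10 skeletal muscle markers had a summed level of 444, 371 and 405 CPM in controls and 76.7, 94.5, 80.8 and 91.1 CPM in exposed cells. TNNT1 was the most abundant in the 30-week controls (186 to 235 CPM), and MYOD1, the master regulator of muscle, held 65.8 to 106 CPM there and at most 5.72 CPM in the other control samples. Of these markers 8 were tested, but MYOG, DES and CHRNA1 passed the filter only through the 30-week controls (37 to 1343 reads per sample, at most 15 elsewhere), so no count of the list is given. MYF5 was at 0 in all control and exposed samples at 30 weeks, and CKM reached at most 3 reads.

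Other markers were scarce. The endothelial markers summed to 0.559 to 0.866 CPM in the 30-week controls and 2.15 to 3.01 CPM in exposed cells, with VWF the most abundant and PECAM1 near 0. VWF was higher in exposed cells (1.7, SE 0.43, adjusted p = 0.0082). CDH5 was at 0 reads in all 3 of those controls, and CDH5 and KDR reached at most 21 reads in any sample, so their calls are not counted. Of the leukocyte markers 2 were tested, CD14 higher (1.72, SE 0.22) and CD68 lower (-0.95, SE 0.15), with CD68 the most abundant and PTPRC near 0. For all the lists of this paragraph, 12% of all genes were called higher at 30 weeks and 11.7% lower. The leukocyte sum was 25.4 to 32.0 CPM in controls and 16.9 to 21.1 CPM in exposed cells at 30 weeks. The smooth muscle sums overlapped (21.7 to 38.3 and 30.6 to 35.9 CPM), with SMTN the most abundant. Of 4 smooth muscle markers tested, LMOD1 (1.55, SE 0.26) alone was called, higher in exposed cells. Of 6 fibroblast markers tested, CDH2 was higher (1.16, SE 0.10) and LUM, at 14 to 23 reads in the 30-week controls and at most 8 elsewhere, is not counted, and VIM (-0.32, SE 0.13) was the most abundant. The fibroblast sum was 2465, 2013 and 2032 CPM in controls and 1761 to 2014 CPM in exposed cells. The part of these marker differences in the changes of the 9 genes was not tested, and in bulk RNA fewer cells of a type and less RNA per cell cannot be told apart.

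Library make-up also moved with the groups. The 6 most abundant small noncoding RNAs took 22.3% to 31% of counts in the 30-week controls and 17% to 21.5% in exposed cells, and without them, a setting added after seeing the data, each of the 9 genes kept its direction and its call at 30 weeks. The 25 other genes tested within 2 Mb of TGFBR1 had a median log2 fold change of 0.38 at 30 weeks, with 12 called, against 0.19 for chromosome 9 and -1.33 for TGFBR1 itself. Near TGFB2, 10 genes had a median of 0.31, with 3 called, and near TGFBR3 26 genes had a median of -0.29, with 4 called, against -0.04 for chromosome 1. Near SMAD7, 20 genes had a median of -0.13, with 3 called, and near LTBP1 13 genes had a median of -0.02, with 1 called. Over all genes tested 23.7% were called.

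For each gene called at 30 weeks, the tested genes whose 6 condition means most resembled its own were sought by the root mean square (RMS) difference of centred log2 CPM. Nearest to TGFBR1 were SP2-DT (RMS 0.090), TWIST1 (0.11), a transcription factor of mesoderm and mesenchymal transition, and SH3GL1 (0.14). Nearest to TGFB2 were ZNF620 (0.063), EIF5B (0.069) and FANCF (0.073). For TGFBR3 they were TET1 (0.049), an enzyme that oxidises methylcytosine, OVOS1P (0.083) and ZSCAN16 (0.094). For LTBP1 they were CSRP2 (0.12), SNHG8 (0.18) and SNORA24 (0.20). For SMAD7 they were ZNF473 (0.029), TTC8 (0.051) and LOC101927045 (0.075). With 6 means per gene and so many genes compared, some close neighbours are found for almost any profile.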

How the data were processed

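The authors trimmed reads with Rfastp, mapped them to hg38 and counted them per gene (featureCounts in the submitters' processing notes), and the values used are the raw counts as deposited, without normalization. The counting strand is not given in the sources used here, so reads of genes that overlap on opposite strands cannot be told apart. Of 28395 Entrez numbers, 27745 matched a symbol, and 0 columns were left out. In R 4.3.3, counts were filtered with filterByExpr, scaled by TMM and fitted with edgeR 4.0.16 (quasi-likelihood) over all 15 samples with 6 condition means, and p-values were adjusted by Benjamini-Hochberg over 16740 genes and called under 0.05. CPM are TMM-scaled, and per-kb values divide by the GENCODE exon union. Log2 CPM used a prior count of 2. SE and 95% intervals belong to fitted log2 fold changes.

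Alternatives were DESeq2 1.42.0, limma-voom (limma 3.58.1) with and without 2 surrogate variables (sva 3.50.0), each time point alone, upper-quartile scaling, no filter, a filter of at least 10 counts per sample, a replicate block, each replicate left out, and, added after seeing the data, the counts without 6 small noncoding RNAs. The procedure was tested on simulated data. All 9 genes are named. From each list, genes were named that were among the 3 largest called changes in either direction without overlap and at a mean of at least 1 CPM at 30 weeks, plus the most abundant gene. SMAD2, SMAD3, SMAD4, MSTN, ACVR1C and the remaining called genes and markers at or near 0 were named after their values were seen. Likeness was taken among tested genes with a mean of at least 1 CPM. The genes and lists were chosen with earlier results of these data known. A gene of the list that TGF-beta is known to induce is not reported here and was left out of that list's counts and median after the results had been seen.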

Additional observations from a re-analysis of the deposited data

Results flagged for a closer look

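TGFBR1 stood out because its exposure change differed between 15 and 30 weeks: the difference of the log2 changes was -1.41 (SE 0.19, edgeR adjusted p = 0.00026), from 0.08 at 15 weeks to -1.33 at 30 weeks, with all 4 exposed samples below all 3 controls at 30 weeks. Under 23 alternatives this difference ran from -1.54 to -1.34. From 15 to 30 weeks TGFBR1 changed by 1.23 in control cells and by -0.18 in exposed cells, where it was not called in the main fit. These times lie in different batches, so growth with exposure time cannot be told apart from the batch. No single exposed sample at 30 weeks passed the critical value of Dixon's ratio for any of the 9 genes. The ratio came nearest for exposed replicate 2, at 0.745 for TGFB1 and 0.718 for LTBP2.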

How the results depend on the processing

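Over 24 alternatives TGFB2, TGFBR1, TGFBR3 and LTBP1 kept their direction and call at 30 weeks. The number of the 9 genes called stayed within 1.5 times of the main count in every comparison, from 4 to 6 at 30 weeks. Counts over pathway lists at 30 weeks moved more. For latency and activation (2) limma-voom with surrogate variables gave 5, and leaving out 1 replicate gave 2 to 4. For co-receptors (2) it gave 4, each time point alone gave 1, the replicate block gave 1, and leaving out 1 replicate gave 1 to 3. For SMADs and regulators (2) it gave 7, each time point alone, no filter and the replicate block each gave 1, and leaving out 1 replicate gave 1 to 6. The cause was not tested. For the activin branch (5, or 3 without MSTN and ACVR1C) requiring at least 10 counts in every sample gave 2, since MSTN, ACVR1C and INHBB fall short of that filter. The deviations of control and exposed samples with the same replicate number correlated at -0.060 at 24 h, 0.029 at 15 weeks and -0.12, 0.30 and 0.098 at 30 weeks, across genes. With 2 samples per arm at 24 h and 15 weeks the deviations are mirror images, so these values cannot settle whether the numbers pair the samples. At 30 weeks not every sample correlated best with its own number. The main fit did not pair samples. The block ended the SMAD7 call in exposed cells from 15 to 30 weeks (-0.35) and no other call of the 9 genes. At most 31459990 counts per sample limit TGFB3 and LTBP1, which rest on 10 to 146 reads per sample.

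Directions turned only for changes that had not passed the test. With limma-voom TGFB3 was 0.0098 at 24 h, 0.054 at 30 weeks and 0.014 in exposed cells from 15 to 30 weeks, and LTBP1 was -0.0034 at 24 h. With surrogate variables TGFB1 was -0.072 and LTBP2 -0.10 at 15 weeks, TGFB3 was 0.012 at 30 weeks and 0.12 in exposed cells from 15 to 30 weeks, LTBP2 was 0.076 for the difference of the changes, and TGFB1 was 0.16 in controls from 24 h to 15 weeks. With the replicate block TGFB1 was -0.24 in exposed cells from 15 to 30 weeks. Leaving out 1 replicate, values that turned had the ranges for exposure at 24 h TGFB1 -0.32 to 0.24, TGFB2 -0.20 to 0.016, TGFB3 -0.44 to 0.45, TGFBR1 -0.077 to 0.044, TGFBR2 -0.087 to 0.0051, TGFBR3 -0.15 to 0.33, LTBP1 -0.29 to 0.25 and LTBP2 -0.091 to 0.36. They were, for exposure at 15 weeks TGFB1 -0.0027 to 0.16, TGFB3 -0.55 to 0.26, LTBP2 -0.018 to 0.094 and SMAD7 -0.22 to 0.0035. They were, for exposure at 30 weeks TGFB3 -0.30 to 0.30 and LTBP2 -0.27 to 0.091. They were, for the difference of the changes TGFB3 -0.28 to 0.53, TGFBR2 -0.047 to 0.21 and LTBP2 -0.31 to 0.054. It was, in controls from 24 h to 15 weeks TGFB1 -0.30 to 0.21. They were, in exposed cells from 24 h to 15 weeks TGFB1 -0.20 to 0.34 and TGFBR3 -0.055 to 0.44. It was, in controls from 15 to 30 weeks TGFB3 -0.44 to 0.15. They were, in exposed cells from 15 to 30 weeks TGFB1 -0.027 to 0.33 and TGFB3 -0.40 to 0.41.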
